A study of Mus musculus with 8 samples.

Results

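The 45 genes described here encode the machinery with which a nerve terminal fills, docks, fuses and retrieves synaptic vesicles. They were taken by gene symbol from 8 hippocampal RNA-seq tables, and each symbol had exactly 1 row among the 55188 gene identifiers of a table. All 45 are annotated as protein-coding, all had a valid status in every library, and all 45 passed the filter on low values (at least 0.5 FPKM in 2 animals), so the counts below cover the whole list. The list was chosen with earlier results of these data known.

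A vesicle fuses when the SNARE proteins of its membrane and of the plasma membrane zip together. Active zone scaffolds hold the vesicle at the release site and prime it, synaptotagmins sense the calcium that triggers fusion, and complexins and Doc2 proteins modulate the last step. NSF and the SNAP proteins then take the spent SNARE complexes apart, and endocytic proteins recover the membrane. In the hippocampus most of this machinery sits in terminals of excitatory pyramidal and granule cells, and interneurons use partly different paralogues.

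The libraries came from the hippocampus of C57BL/6 mice sampled ahead of any fear conditioning. The groups were wild type (WT) and a group labelled KO, which the study's design text names as a knockout of Pyk2, the kinase encoded by Ptk2b. Each group had 2 numbered animals with 2 technical replicate libraries each, and the values of an animal are the mean of its 2 libraries (n = 2 per group). The labels call the mice of both groups transgenic and give neither the allele, the age nor the sex. Whether the numbered animals were separate mice is not stated, and any p-value then covers only the spread among them, which may be technical. Values are FPKM, fragments per kilobase of transcript scaled to the sequenced total, so levels of different genes can be compared per length.

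Some facts of the whole series bear on these genes. Ptk2b itself did not have a lower level under the KO label (232 and 202 FPKM in the WT animals, 278 and 269 FPKM in those labelled KO, adjusted p = 0.158 in limma), so every direction below is that of the labels. A whole-gene value does not test for the loss of an exon. Xist stood at 63.7 to 71.5 FPKM and Ddx3y at or below 0.00884 FPKM in every animal, a point of relevance to Syn1 and Syp, which lie on the X chromosome. Read totals were not among the values used here; the FPKM summed to 489121 to 506216 per library, lowest in the first library of KO1. Precision per gene can be read from the deposited confidence limits. Their half-width, in the least precise library, had a median of 4.39% of the FPKM over the 45 genes and ran from 0.886% for Cplx2 to 33.8% for Cplx3.

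The stretches of 250 bases before the RefSeq start are shown for 4 of the genes, to put sequence beside the levels and differences that follow. RefSeq (GRCm38.p6) gave such a stretch for 36 of the 45 genes, in 46 windows because some genes have several starts. Rims1 and Erc2 are shown because they had the smallest p among genes whose window lies within 500 bases of the deposited gene and outside it, and Cplx1 and Cplx3 because they are the most and the least abundant complexin with such a window. Capitals mark the GC box, GGGCGG on either strand. The windows are chr1:22806159-22806408 (minus strand), chr14:27622157-27622406 (plus strand), chr5:108550028-108550277 (minus strand) and chr9:57606282-57606531 (minus strand), each written 5′ to 3′ along the gene.
Rims1: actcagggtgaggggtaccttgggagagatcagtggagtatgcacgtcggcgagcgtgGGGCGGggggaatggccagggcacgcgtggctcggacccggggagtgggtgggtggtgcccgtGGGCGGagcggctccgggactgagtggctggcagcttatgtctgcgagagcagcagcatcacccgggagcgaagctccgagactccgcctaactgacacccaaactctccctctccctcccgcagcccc
Erc2: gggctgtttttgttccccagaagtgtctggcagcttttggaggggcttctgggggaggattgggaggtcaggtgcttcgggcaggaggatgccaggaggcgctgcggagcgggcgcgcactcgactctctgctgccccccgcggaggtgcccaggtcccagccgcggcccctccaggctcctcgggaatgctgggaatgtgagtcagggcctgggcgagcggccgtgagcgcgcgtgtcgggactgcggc
Cplx1: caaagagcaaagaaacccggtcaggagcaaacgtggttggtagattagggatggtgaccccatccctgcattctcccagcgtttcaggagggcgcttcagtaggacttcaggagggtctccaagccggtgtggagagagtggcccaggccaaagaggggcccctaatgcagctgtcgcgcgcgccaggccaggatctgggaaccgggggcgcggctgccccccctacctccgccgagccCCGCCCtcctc
Cplx3: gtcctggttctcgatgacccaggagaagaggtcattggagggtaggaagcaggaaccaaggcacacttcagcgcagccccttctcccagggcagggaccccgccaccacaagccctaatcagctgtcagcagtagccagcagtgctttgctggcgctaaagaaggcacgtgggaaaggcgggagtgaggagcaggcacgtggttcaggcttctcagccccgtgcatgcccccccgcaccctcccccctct
The Rims1 window holds 2 GC boxes, the Cplx1 window holds 1, and these letters are not in the windows of Erc2 and Cplx3. Of the 46 windows 25 (54.3%) hold the GC box, against 32.7% of the 32851 windows in the whole table. The cAMP response element TGACGTCA is in 2 of them (4.35%, against 1.55%) and TATAAA in 3 (6.52%, against 12.4%), both strands searched. The median number of CG dinucleotides was 12 per window, against 6 over all windows. A match is a description of letters and not of a bound site, and these shares were not tested.

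The genes ranged over more than 2 orders of magnitude in level. Averaged over the 4 animals, 16 lay above 100 FPKM, 21 between 10 and 100 FPKM and 8 under 10 FPKM. Ranked by level among the 16667 genes tested, 8 were in the top 1%, 19 in the top 5% and 26 in the top 10%. Snap25, at rank 40, was the most abundant, and Cplx3, at rank 11960, the least. The genes are also long: the annotated span had a median of 64262 bases, against 19266 for all genes tested, and ran from 3895 bases for Vamp2 to 856110 bases for Erc2.

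**Figure D1:**
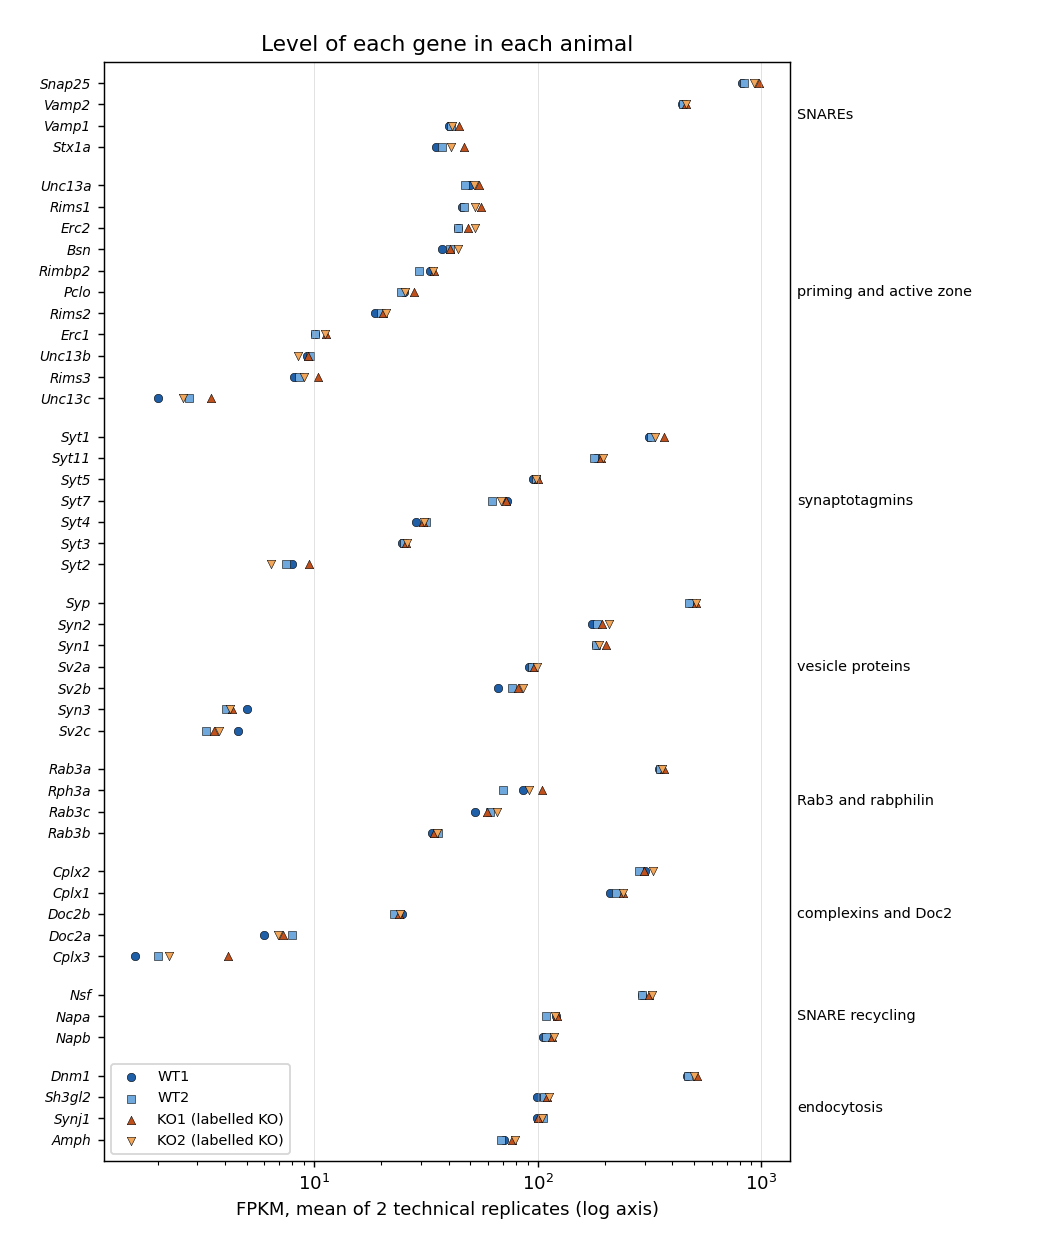
FPKM of each of the 45 genes (log axis) in the 4 animals, grouped by role and ordered by level. Symbols are animal means of 2 technical replicates. Snap25 is highest and Cplx3 lowest, and for most genes the 4 animals lie close together compared with the distance between genes.

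Compared between groups, the 45 genes were mostly a little higher in the animals labelled KO and none passed the test. The mean was higher for 41 and lower for 4, where 42.0% of all genes tested were higher. The median difference in log2(FPKM + 1), KO minus WT, was 0.10 for the list and -0.02 for all genes tested. In limma, 0 of the 45 had an adjusted p under 0.05 (0.054% of all genes did, all of them lower in the animals labelled KO), and 16 had an unadjusted p under 0.05 with a higher mean, where 4.11% of all genes did. None had an unadjusted p under 0.05 with a lower mean (11.4% of all genes). Both animals labelled KO lay above both WT animals for 30 of the 45 genes (18.4% of all genes) and below them for 0 (30.7% of all genes). All 4 libraries labelled KO lay above all 4 WT libraries for 23 genes (7.11% of all genes). The list was chosen with a higher level in the KO libraries already known, so these counts describe it and do not test it.

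Set beside the spread between animals, the differences were of a like size for single genes. Relative to the WT mean, the median of the list was -0.01 in WT1, 0.01 in WT2, 0.10 in KO1 and 0.09 in KO2. Each gene was set against its own WT mean, so the WT medians mirror each other. The list was chosen with a higher level in the KO libraries known, so these medians describe it and do not test it. The same medians over all genes are not given here. The larger of the WT1 to WT2 and KO1 to KO2 differences exceeded the group difference in 19 of the 45 genes and did not in the others. The difference between the animals of a group had a median of 0.08 in WT and 0.06 in the animals labelled KO on the log2(FPKM + 1) scale, and that between technical replicates had medians of 0.02 to 0.04. An exact permutation test of 2 against 2 animals cannot give a two-sided p below 0.333 for any single gene. With an animal left out, its group holds 1 animal, which is assumed to vary like those of the other group, and fewer degrees of freedom remain. The count of genes with an unadjusted p under 0.05 and a higher mean was then 6 without WT1 (2.44% of all genes tested), 9 without WT2 (1.59%), 8 without KO1 (2.61%) and 15 without KO2 (4.96%), beside 16 with all animals.

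**Figure D2:**
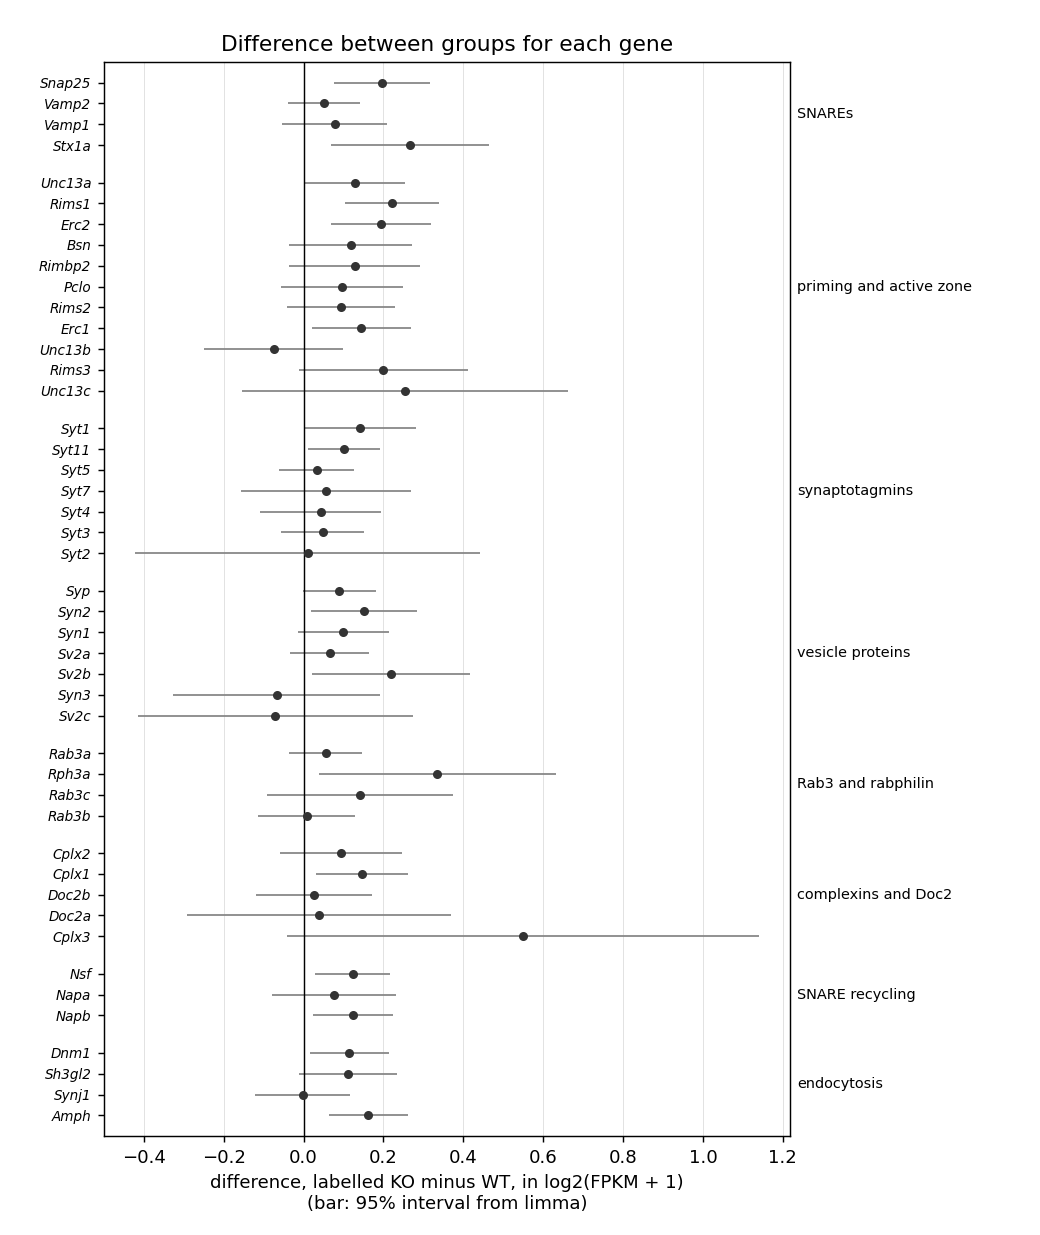
Difference in log2(FPKM + 1), animals labelled KO minus WT, for each of the 45 genes, with the 95% interval from limma, grouped by role. Points lie right of 0 for 41 genes, at most 0.55 (Cplx3), and left of it for Unc13b, Syn3, Sv2c and Synj1.

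The 4 SNARE genes had the highest summed level of the 8 roles, 1337 and 1361 FPKM in WT against 1529 and 1464 FPKM under the KO label. In all 4, both animals labelled KO lay above both WT animals (18.4% of all genes tested). Snap25, the plasma membrane SNARE that supplies a pair of helices to the complex (ENSMUSG00000027273, chromosome 2, 136713453 to 136782428 in mm10), stood at 820.2, 817, 843 and 833 FPKM in the WT libraries and at 983, 970.3, 927 and 919.5 FPKM in those labelled KO. The groups did not overlap, and the means were 828 ± 13.6 and 950.0 ± 38.0 FPKM (SD, n = 2), a difference of 0.20 (SE 0.05, adjusted p = 0.179). Stx1a, the syntaxin of the plasma membrane (ENSMUSG00000007207, chromosome 5, 135023482 to 135051100), stood at 34.2, 36.1, 38.0 and 36.7 FPKM in WT, against 46.6, 47.3, 39.6 and 42.1 FPKM in the libraries labelled KO. KO1 was the high animal, and the difference of 0.27 (SE 0.08, 95% interval 0.07 to 0.47, adjusted p = 0.231) was 0.17 without it.

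Vamp2, the synaptobrevin of most forebrain vesicles (ENSMUSG00000020894, chromosome 11, 69088490 to 69092384), had 443 and 445 FPKM in WT against 461 and 459 FPKM under the KO label. The 4 animals thus spanned a few percent, and the difference was 0.05 (SE 0.03, adjusted p = 0.531). Vamp1, the paralogue known from fast-firing neurons and motor terminals, was at 40.3, 40.8, 44.6 and 41.2 FPKM in WT1, WT2, KO1 and KO2. Vamp2 exceeded Vamp1 by 10.3 to 11.1 times in every animal, and Vamp1 made up 8.34%, 8.40%, 8.82% and 8.23% of the pair in the same order.

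Among the priming and active zone genes 10 of 11 had a higher mean in the animals labelled KO, with a median difference of 0.13. In 9 of them both animals labelled KO lay above both WT animals (18.4% of all genes tested). Rims1, which anchors priming factors and calcium channels at the release site (ENSMUSG00000041670, chromosome 1, 22286251 to 22805994), stood at 45.8, 45.7, 47.2 and 46.7 FPKM in the WT libraries and at 55.2, 56.4, 52.7 and 52.6 FPKM in those labelled KO. All 4 KO libraries were above all WT libraries, and the difference of 0.22 (SE 0.05, 95% interval 0.10 to 0.34, adjusted p = 0.144) had the smallest p of the 45 genes. Its paralogues Rims2 and Rims3 stood lower, at 18.7, 19.97, 20.3 and 21.0 FPKM and at 8.09, 8.59, 10.4 and 9.04 FPKM in WT1, WT2, KO1 and KO2.

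Unc13a, the Munc13 that opens syntaxin for priming at most excitatory synapses (ENSMUSG00000034799, chromosome 8, 71624417 to 71671757), had 49.8 and 47.3 FPKM in WT against 54.6 and 51.8 FPKM under the KO label (difference 0.13, SE 0.05, adjusted p = 0.311). It shares 495 exonic bases with Colgalt1 on the other strand (17.2 FPKM), and no strand setting is given, so some of its fragments cannot be assigned. Unc13b, a further Munc13, was at 9.28, 9.56, 9.37 and 8.43 FPKM, with KO2 the low animal and the groups overlapping. Unc13c, known from cerebellar granule cells, was at 2.002, 2.76, 3.46 and 2.60 FPKM, and its groups overlapped too. The order Unc13a, Unc13b, Unc13c held in every animal, with neighbours at least 2.71 times apart.

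Of the scaffolds that build the cytomatrix, Erc2 (ELKS2 or CAST; ENSMUSG00000040640, chromosome 14, 27622428 to 28478537) was at 45.2, 43.0, 44.6 and 43.3 FPKM in the WT libraries and at 49.2, 48.1, 51.0 and 53.9 FPKM in those labelled KO. The libraries did not overlap, and the difference was 0.19 (SE 0.05, adjusted p = 0.196). Erc1, the broadly expressed ELKS, had 10.1 FPKM in both WT animals against 11.3 and 11.2 FPKM under the KO label (difference 0.14, SE 0.05, adjusted p = 0.274). The giant scaffolds Bsn (bassoon) and Pclo (piccolo) were at 37.4, 40.3, 40.6 and 43.9 FPKM and at 25.2, 24.5, 27.98 and 25.4 FPKM in WT1, WT2, KO1 and KO2. Their animal means did not overlap between groups, although single libraries did. Rimbp2, which links RIMs to calcium channels, was at 32.9, 29.4, 34.3 and 33.9 FPKM, with WT2 as the low animal.

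The synaptotagmins had the smallest median difference of the roles. All 7 had a higher mean in the animals labelled KO, with a median difference of 0.05 and a highest of 0.14. In 3 of them both animals labelled KO lay above both WT animals (18.4% of all genes tested). Syt1, the fast calcium sensor of forebrain synapses (ENSMUSG00000035864, chromosome 10, 108497650 to 109010982), had 314 and 319.6 FPKM in WT against 366 and 334 FPKM under the KO label. KO1 lay apart from the other 3 animals, and the difference of 0.14 (SE 0.05, adjusted p = 0.319) was 0.07 without it. Syt11, a synaptotagmin that does not bind calcium (ENSMUSG00000068923, chromosome 3, 88744700 to 88775164), was at 181 and 179 FPKM and at 191 and 196 FPKM (difference 0.10, SE 0.03, adjusted p = 0.282).

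The synaptotagmin levels followed the same order in every animal: Syt1, Syt11, Syt5, Syt7, Syt4, Syt3 and Syt2, with neighbours that did not overlap in any library. Syt7, the slow sensor linked to facilitation and asynchronous release, was at 72.8, 62.2, 72.0 and 68.2 FPKM in WT1, WT2, KO1 and KO2, so the WT animals differed more than the groups. Syt5 was at 95.6, 97.8, 100.2 and 97.7 FPKM, and Syt3 at 24.8, 25.2, 25.7 and 26.1 FPKM. Syt4, a vesicle protein whose calcium binding is impaired, was at 28.5, 31.5, 30.8 and 31.0 FPKM. Syt2, the fast sensor of hindbrain and parvalbumin terminals, was at 7.999, 7.49, 9.45 and 6.41 FPKM, with the animals labelled KO lying on either side of WT (difference 0.01, 95% interval -0.42 to 0.44).

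Among vesicle proteins, 5 of 7 were higher in the animals labelled KO (median difference 0.09). In the same 5, both animals labelled KO lay above both WT animals (18.4% of all genes tested). Syp, synaptophysin, an integral vesicle protein widely used as a marker of terminals (ENSMUSG00000031144, chromosome X, 7638471 to 7653256), had 479.8 and 475 FPKM in WT against 509 and 507 FPKM under the KO label (difference 0.09, SE 0.04, adjusted p = 0.326). The synapsins tether vesicles in the reserve pool. Syn2 (ENSMUSG00000009394, chromosome 6, 115134902 to 115282006) had 176 and 184 FPKM in WT against 193 and 207 FPKM under the KO label (difference 0.15, SE 0.05, adjusted p = 0.278). Syn1 had 182 FPKM in both WT animals against 201 and 189 FPKM under the KO label. Syn1 and Syn2 had overlapping levels and changed order between animals, whereas Syn3 was at 4.998, 4.05, 4.31 and 4.19 FPKM, 36.4 to 46.7 times under Syn1. Syn3 shares 1733 exonic bases with Timp3 on the other strand (23.8 FPKM), so its low value is uncertain.

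The SV2 proteins are vesicle glycoproteins that bind synaptotagmin. Sv2b (ENSMUSG00000053025, chromosome 7, 75114894 to 75309262) was at 67.1, 66.1, 75.7 and 78.1 FPKM in the WT libraries and at 81.4, 81.5, 85.6 and 85.7 FPKM in those labelled KO. WT1 was the low animal, and the difference of 0.22 (SE 0.08, 95% interval 0.02 to 0.42, adjusted p = 0.286) was 0.12 without it. Sv2a had 91.7 and 94.3 FPKM in WT against 95.8 and 98.9 FPKM under the KO label. Sv2c, known from the basal ganglia, was at 4.55, 3.30, 3.55 and 3.75 FPKM with WT1 as the high animal.

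Rab3 proteins mark vesicles for docking, and rabphilin binds them. Rab3a (ENSMUSG00000031840, chromosome 8, 70754679 to 70758677) had 347 and 353 FPKM in WT against 367 and 361 FPKM under the KO label (difference 0.05, SE 0.04, adjusted p = 0.514). Rab3c (ENSMUSG00000021700, chromosome 13, 110054187 to 110280996) overlapped between the groups, at 52.1, 61.1, 59.4 and 65.4 FPKM in WT1, WT2, KO1 and KO2. Rab3b was at 33.8, 35.8, 34.4 and 35.6 FPKM, with a difference of 0.01 (95% interval -0.11 to 0.13). Rph3a, rabphilin-3A (ENSMUSG00000029608, chromosome 5, 120940499 to 121010092), was at 85.7, 85.2, 70.1 and 69.3 FPKM in the WT libraries and at 104.7, 103.9, 91.1 and 91.3 FPKM in those labelled KO. The groups did not overlap, but WT1 and WT2 differed by 0.29 on the log2 scale, nearly as much as the group difference of 0.33 (SE 0.12, 95% interval 0.04 to 0.63, adjusted p = 0.282), which was 0.19 without WT2.

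Complexins bind the assembled SNARE complex, and Doc2 proteins are high-affinity calcium sensors. Cplx1 (ENSMUSG00000033615, chromosome 5, 108518554 to 108550024) had 210.1 and 224 FPKM in WT against 241 and 239.9 FPKM under the KO label (difference 0.15, SE 0.04, adjusted p = 0.247). Cplx2 (ENSMUSG00000025867, chromosome 13, 54371349 to 54383917) overlapped, at 303, 283, 299.8 and 326 FPKM in WT1, WT2, KO1 and KO2. It stayed above Cplx1 by 1.24 to 1.44 times in every animal. Cplx3, known from ribbon synapses of the retina (ENSMUSG00000039714, chromosome 9, 57599992 to 57606281), was 58.5 to 133 times under Cplx1, at 1.40, 1.77, 1.74 and 2.26 FPKM in the WT libraries and at 4.08, 4.16, 2.60 and 1.90 FPKM in those labelled KO. KO1 alone was high and the libraries overlapped. Its difference of 0.55 (SE 0.23, 95% interval -0.04 to 1.14, adjusted p = 0.346) was the largest of the list and was 0.22 without KO1. Doc2b was at 24.8, 22.6, 23.9 and 24.3 FPKM and Doc2a at 5.96, 7.93, 7.29 and 6.91 FPKM, both overlapping. Doc2a shares 1103 exonic bases with Ino80e on the other strand (23.1 FPKM), so its value is uncertain.

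For the genes that take SNARE complexes apart, Nsf, the ATPase (ENSMUSG00000034187, chromosome 11, 103821782 to 103954056), had 293 and 291 FPKM in WT against 313 and 323 FPKM under the KO label, with no overlap (difference 0.12, SE 0.04, adjusted p = 0.242). Napb, beta-SNAP (ENSMUSG00000027438, chromosome 2, 148693985 to 148732467), was at 105 and 109 FPKM and at 115 and 119 FPKM (difference 0.12, SE 0.04, adjusted p = 0.253). Napa, alpha-SNAP (ENSMUSG00000006024, chromosome 7, 16098458 to 16117975), had 121 and 108 FPKM in WT against 122 and 119 FPKM under the KO label (difference 0.08, SE 0.06, adjusted p = 0.594), with overlapping groups and a sign that turned without WT2. The levels of the pair overlapped.

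Of the endocytic genes, Dnm1, the dynamin that pinches off vesicles (ENSMUSG00000026825, chromosome 2, 32308471 to 32353338), had 466 and 468 FPKM in WT against 514 and 498 FPKM under the KO label (difference 0.11, SE 0.04, adjusted p = 0.269). Amph, amphiphysin, which binds dynamin at curved membrane (ENSMUSG00000021314, chromosome 13, 18948205 to 19150921), was at 69.2, 72.1, 67.8 and 69.5 FPKM in the WT libraries and at 76.8, 77.2, 78.5 and 79.7 FPKM in those labelled KO. No library overlapped, and the difference was 0.16 (SE 0.04, 95% interval 0.06 to 0.26, adjusted p = 0.179). Sh3gl2, endophilin A1 (ENSMUSG00000028488, chromosome 4, 85205126 to 85639195), was at 99.0 and 107 FPKM and at 110.0 and 112 FPKM (difference 0.11, SE 0.05, adjusted p = 0.357). Synj1, the phosphatase synaptojanin, which takes part in the loss of clathrin coats, did not follow them. It was at 99.7, 105, 99.99 and 105 FPKM in WT1, WT2, KO1 and KO2, with a 95% interval of -0.12 to 0.12.

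Within families the mix of paralogues was nearly constant. Each family had the same dominant member in all 4 animals, other than the synapsins and the SNAPs, where the leading pair overlapped. Dominant shares were 91.2% to 91.8% for Vamp2, 79.3% to 82.4% for Unc13a, 62.2% to 64.4% for Rims1, 81.1% to 82.4% for Erc2, 78.1% to 80.1% for Rab3a and 74.1% to 80.6% for Doc2b. A few shares had groups that did not overlap in any library: Sv2b was 40.9% and 44.1% of its family in WT and 45.05% and 45.5% in the animals labelled KO, with Sv2a at 56.3% and 54.0% against 53.0% and 52.5%. The share of Rims1 was 63.1% and 62.2% against 64.4% and 63.6%, and that of Unc13b 15.2% and 16.05% against 13.9% and 13.4%. These shifts of 1.41 to 2.77 percentage points were picked after their values were seen and were not tested.

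**Figure D3:**
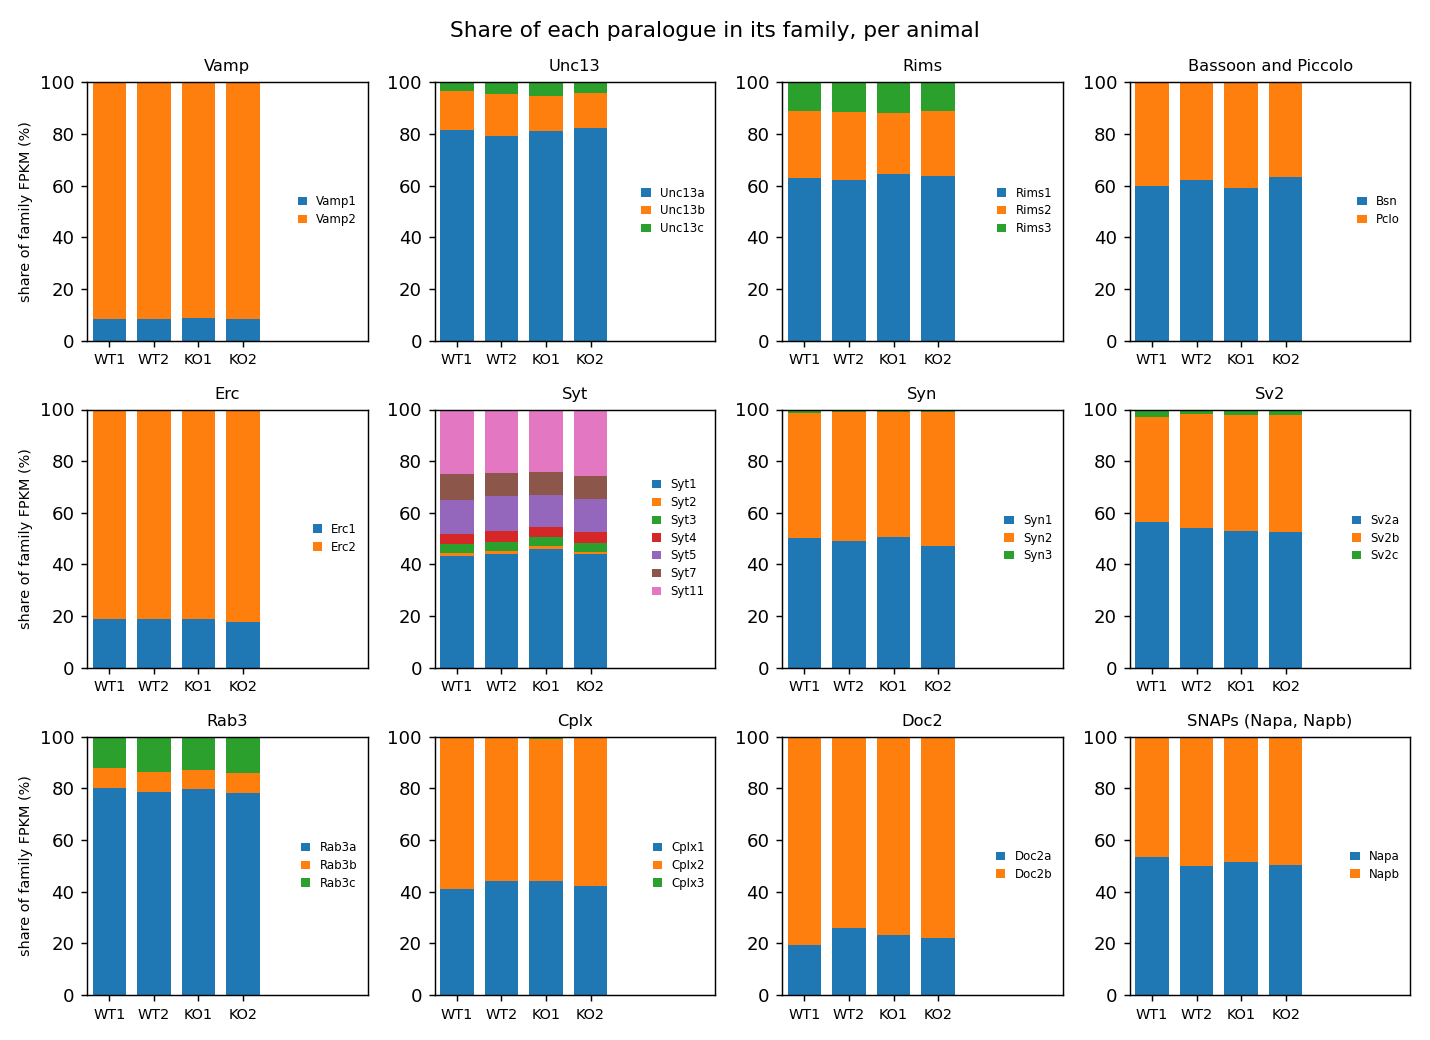
Share of each paralogue in the summed FPKM of its family, in percent, for 12 families in the 4 animals. The bars of a family look alike in WT1, WT2, KO1 and KO2; the Sv2b part of the Sv2 bar is 40.9% in WT1 and 45.5% in KO2.

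Other genes of vesicle release and recycling were drawn from 5 further lists of 94 genes, of which 91 were tested. Unc13d, Cplx4 and Slc18a3 were under the filter. In limma 0 of the 91 had an adjusted p under 0.05 (0.054% of all genes did), and the median difference was 0.06. An unadjusted p under 0.05 was found with a higher mean for 14 (4.11% of all genes). It was found with a lower mean for 7 (11.4% of all genes). Release site proteins were higher in 11 of 13, vesicle membrane proteins and transporters in 15 of 19, endocytic genes in 21 of 29, SNAREs and SM proteins in 9 of 17, and the remaining synaptotagmins, Rab3 and Rab27 genes in 6 of 13 (42.0% of all genes tested were higher). The genes named are the 2 of each list with the smallest p in limma, in either direction. Some others, such as Ppfia3 (adjusted p = 0.230) and Syngr3 (adjusted p = 0.235), therefore had a smaller p than some named here. On the higher side, Cadps, a priming factor for dense-core vesicles, was at 56.0, 54.8, 62.9 and 62.8 FPKM in WT1, WT2, KO1 and KO2 (adjusted p = 0.140). Syt13 was at 47.4, 45.4, 54.2 and 52.9 FPKM (adjusted p = 0.144), and Apba1, the adaptor Mint1, at 25.3, 26.2, 31.1 and 29.3 FPKM (adjusted p = 0.161). Slc17a7, the vesicular glutamate transporter VGLUT1, was at 378, 379, 424 and 415 FPKM (adjusted p = 0.186), and the endocytic adaptor Eps15 at 78.2, 77.7, 87.8 and 83.0 FPKM (adjusted p = 0.266). Dnajc6, auxilin, was at 61.2, 64.95, 67.6 and 72.5 FPKM (adjusted p = 0.295), and Syt16 at 17.2, 16.3, 21.6 and 18.3 FPKM (adjusted p = 0.305).

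Some of these genes stood lower in the animals labelled KO, without passing. Stxbp2 and Stxbp3, SM proteins best known from secretion outside neurons, were at 20.2, 19.97, 12.8 and 16.2 FPKM (difference -0.45, adjusted p = 0.186) and at 9.13, 9.22, 7.34 and 8.03 FPKM (difference -0.23, adjusted p = 0.221). Slc32a1, the vesicular GABA transporter, was at 40.2, 35.7, 30.5 and 32.5 FPKM (difference -0.26, adjusted p = 0.216).

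Markers of cell types moved with the groups, and bulk values cannot tell fewer cells of a type from less RNA per cell. The 9 pan-neuronal markers measured of 10 listed all had a higher mean in the animals labelled KO (median difference 0.10, the same as for the 45 genes; 0 passed in limma, 3 at an unadjusted p under 0.05), and their summed FPKM was 1804 and 1808 in WT and 1930.1 and 1904 in the animals labelled KO. Thy1, the most abundant of them, was at 433, 432, 479 and 446 FPKM. The 45 genes summed to 5669 and 5704 FPKM in WT and to 6223 and 6138 FPKM in the animals labelled KO. Hippocampal excitatory markers were higher in 9 of 10 (sums 706 and 664 against 787 and 739.7 FPKM), and inhibitory neuron markers in 6 of 12 (1036 and 1021 against 1117 and 1068 FPKM). Cck was the most abundant inhibitory marker, at 368, 353, 447 and 393 FPKM (difference 0.22), and so weighed most in that sum. The 12 inhibitory markers had a median difference of 0.03. The 6 that were lower included Gad1 (-0.03), Gad2 (-0.15) and Slc32a1 (-0.26). Oligodendrocyte lineage markers were higher in 9 of 10, with overlapping sums of 2968 and 2779 against 3280.2 and 2879 FPKM.

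The choroid plexus, blood and meningeal lists went the opposite way. All 14 choroid plexus markers were lower in the animals labelled KO, with 0 past the threshold in limma and 14 at an unadjusted p under 0.05, and with sums of 4276 and 7550 FPKM in WT and 292 and 1248 FPKM in the animals labelled KO. All 5 blood markers (287 and 317 against 149 and 158 FPKM) and all 8 meningeal fibroblast markers (107 and 179 against 36.2 and 66.6 FPKM) were lower too, and 2 of the blood markers passed in limma. The most abundant markers were Ttr of the choroid plexus list (3366, 6325, 180.0 and 934 FPKM in WT1, WT2, KO1 and KO2), Hba-a2 of the blood list (88.4, 98.1, 47.1 and 48.3 FPKM) and Igf2 of the meningeal list (67.0, 119, 16.5 and 26.3 FPKM). Igf2 thus weighed most in the meningeal sums of the WT animals. The meningeal list had a median difference of -0.46, with Igf2 (-2.04) and Slc13a4 (-1.68) the lowest. Of its 8 markers 5 had separate groups, while Dcn (-0.63), Slc6a13 (-0.36) and Col3a1 (-0.06) overlapped. The striatum list summed to 93.7 and 91.3 FPKM against 61.4 and 61.6 FPKM, and its most abundant marker, Ppp1r1b, passed in limma at 49.5, 52.3, 28.01 and 28.3 FPKM (adjusted p = 0.0372). Endothelium and pericyte and thalamus sums were lower without overlap, with Ly6c1 (20.8, 23.8, 22.5 and 20.9 FPKM) and Calb2 (30.6, 37.2, 22.2 and 36.2 FPKM) as their most abundant markers, and the sums of astrocytes, microglia and neocortex overlapped. Ly6c1 and Calb2 themselves overlapped between the groups. Of the endothelium and pericyte markers 2 of 9 had a higher mean, and of the thalamus and striatum markers 3 of 8 each (42.0% of all genes tested). Microglia markers had a higher mean in 5 of 7 (median difference 0.12) and neocortex markers in 5 of 8 (0.12), the same side as the 45 genes, and astrocyte markers in 3 of 8 (-0.03). No marker of any list was at 0 in all libraries. The part of tissue composition in the differences of the 45 genes was not tested.

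**Figure D4:**
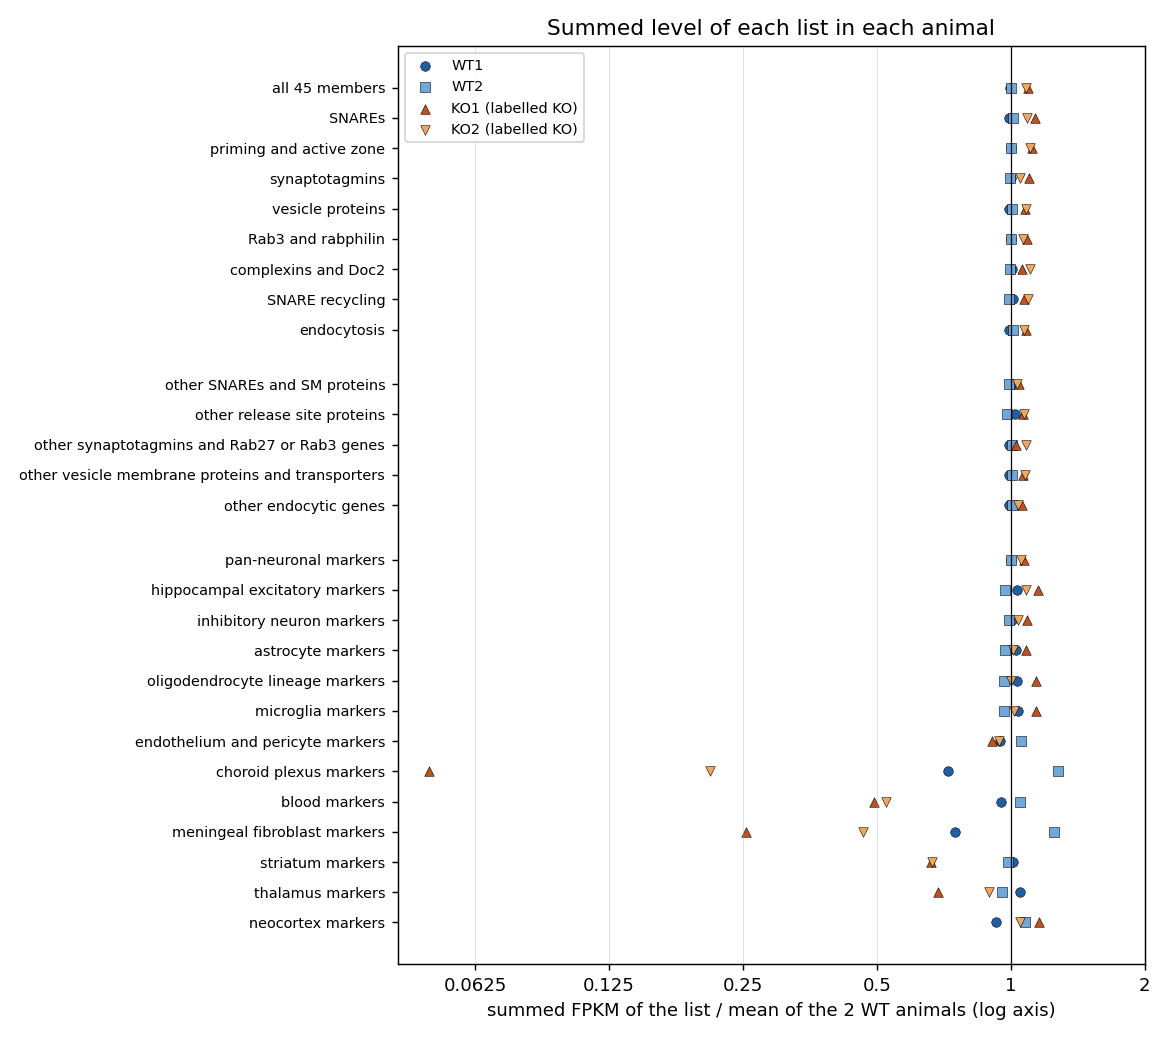
Summed FPKM of each list divided by the mean of the 2 WT animals (log axis), for the 45 genes and their roles, the other pathway lists and the marker lists, in the 4 animals. The sums of choroid plexus, blood and meningeal fibroblast markers lie below 1 in KO1 and KO2. Those of the 45 genes and the pan-neuronal markers lie slightly above it. In the WT animals Igf2 weighs most in the meningeal sum.

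When the animals were scaled to the 9 pan-neuronal markers, an alternative added after the data were seen, all genes of an animal were multiplied alike, which lowers every difference by about the difference of those markers. The median of the 45 genes was then -0.01, with 22 higher and 1 at an unadjusted p under 0.05 with a higher mean, and 0 passed. The share of all genes at an unadjusted p under 0.05 with this scaling is not given here. Under this scaling the median over all genes tested was -0.11, against -0.02 as deposited, so the median of the 45 genes stood 0.11 above that of all genes, where it stood 0.12 above as deposited. That distance was 0.13 with the median of ratios and 0.07 with quantile normalization. The genes that stayed furthest above 0 were Cplx3 (0.47), Rph3a (0.23), Unc13c (0.18), Stx1a (0.16), Rims1 (0.12) and Sv2b (0.11), and the lowest were Unc13b (-0.17), Sv2c (-0.15) and Syn3 (-0.15). Scaling by the median of ratios gave a median of 0.13 with 42 higher, and quantile normalization 0.10 with 42 higher.

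**Figure D5:**
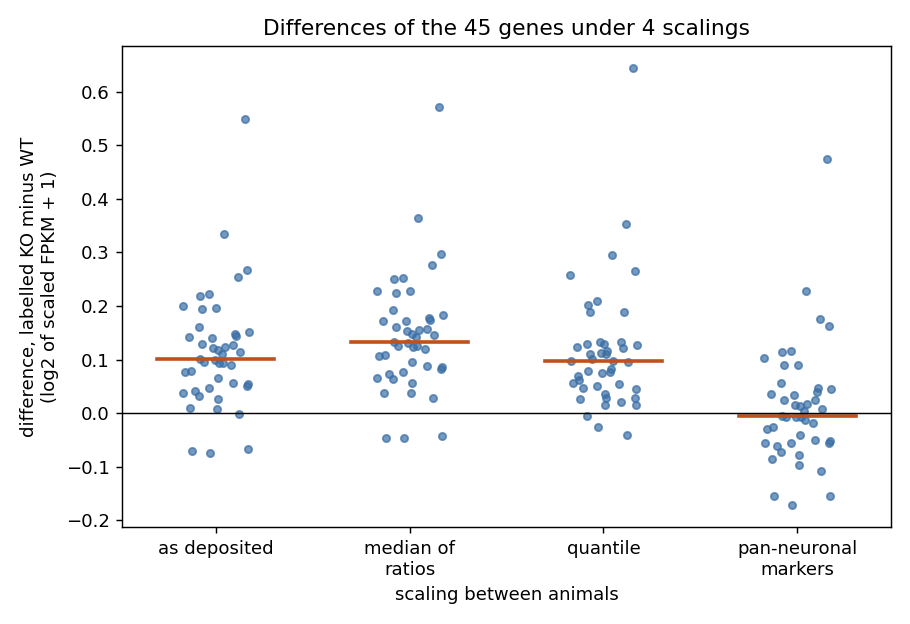
Difference in log2(scaled FPKM + 1), animals labelled KO minus WT, for the 45 genes (points, spread sideways at random) under 4 scalings between animals; bars are medians. The medians are 0.10 as deposited, 0.13 with the median of ratios, 0.10 with quantile normalization and -0.01 when scaled to 9 pan-neuronal markers.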

How the data were processed

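The deposited tables, 1 per library, hold gene-level FPKM computed by the authors beside confidence limits and a status flag, per the file headers. Names listed in the submitters' processing notes are mm10, Bowtie (1) and HISAT. The program behind the FPKM, its scaling and any strand setting were not given in the sources used here. The 12 values flagged as other than OK were set missing, and 53 extra rows of repeated identifiers were summed. Technical replicates were averaged per animal. The 16667 genes reaching 0.5 FPKM in 2 animals were tested as log2(FPKM + 1), KO minus WT, with limma 3.58.1 (trended variance, R 4.3.3) and Benjamini-Hochberg adjustment at 0.05; the pseudocount understates differences of low genes. Differences without a named scale are on this scale. The procedure was tested on simulated data.

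The genes and lists were chosen with earlier results of these data known. Given in full were, per role, the 2 genes with the highest level and the 2 with the smallest p; per further pathway list, up to 2 with the smallest p; and the most abundant marker of a list whose sums did not overlap. Other values were named after they were seen. Coordinates are the deposited ones, counted from 1. Shared exons come from GENCODE M21 and promoter windows from RefSeq. Alternatives were other scalings, filters, a pseudocount of 0.1, no variance trend, single technical replicates, each library as a unit, a replicate block and each animal left out. Tubb3, a listed marker, was not analysed here.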

Additional observations from a re-analysis of the deposited data

How the results depend on the processing

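With 2 animals a group, 0 of the 45 genes passed on its own, and FPKM hide the read depth. The count of the 45 genes past the threshold stayed 0 under every alternative other than taking all libraries as units. That fit allowed for a correlation, shared by all genes, between the libraries of an animal. Its degrees of freedom still came from libraries and not from animals. Over all genes 1085 passed there with 275 higher, as did 12 of the other pathway genes. Of the 45 genes 26 had an unadjusted p under 0.05 and 12 passed. These 12 were Snap25, Stx1a, Rims1, Erc2, Syt11, Syn2, Rph3a, Cplx1, Nsf, Napb, Dnm1 and Amph. The median of the 45 genes was 0.13 after median-of-ratios scaling and -0.00528 after scaling to pan-neuronal markers, which shifts all genes of an animal alike (median of all genes -0.11, so the list stood 0.11 above it, beside 0.12 as deposited); there 22 genes were higher and 1 had an unadjusted p under 0.05. Under that scaling Vamp2 (-0.0558), Syt11 (-0.00528), Syp (-0.0173), Rab3a (-0.0519), Cplx2 (-0.0128) and Napa (-0.0300) lay below 0 for the same reason, and Napa ran from -0.00229 (without WT2) to 0.155 over the animals left out. Without a variance trend 6 of the 45 had an unadjusted p under 0.05. Shares of all genes at an unadjusted p under 0.05 are not given here for libraries as units, pan-neuronal scaling or no trend. The counts of the 45 under these settings therefore have nothing to be set against.

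Leaving out each animal in turn gave medians of 0.09 to 0.11, 38 to 41 genes higher, 6 to 15 at an unadjusted p under 0.05, and 0 to 1 of the other pathway genes past the threshold. Over all genes it gave 0 to 128 past the threshold (0 without WT1, 0 without WT2, 1 without KO1 and 128 without KO2), with 0 to 14 higher. That total of 9, with 0 higher, was 14 (1 higher) with a pseudocount of 0.1, 0 with no filter, 1 without a variance trend, 20 (4 higher) without the first library of KO1 and 149 (2 higher) with pan-neuronal scaling. Single technical replicates gave 2 and 3 genes higher.

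With the animal number as a replicate block, 184 genes passed (8 higher) and 0 of the 45. The numbers do not show a pairing: the WT1 to WT2 and KO1 to KO2 differences correlated at 0.107 over 16667 genes.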
